A study of Saccharomyces cerevisiae with 16 samples.

Results

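The genes described here encode the factors that start, extend and end protein synthesis on cytosolic ribosomes of budding yeast, together with the Gcn2 kinase pathway that acts on initiation. They were chosen as a list of 40 named genes, of which 38 were measured, out of 5404 named genes tested. TIF1 and EFT1 have no probe set of their own. They encode the same proteins as TIF2 and EFT2, and the probe set names of those 2 genes mark probes shared by several transcripts. Each pair therefore cannot be told apart, and TIF2 and EFT2 stand below for both genes of their pair.

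In initiation, a ternary complex of eIF2, GTP and initiator tRNA joins the small ribosomal subunit with help from eIF1, eIF1A, eIF3 and eIF5, and the eIF4 factors bring in the capped mRNA. The guanine nucleotide exchange factor eIF2B recharges eIF2 with GTP after each round. When uncharged tRNA or other stress activates Gcn2 with its partners Gcn1 and Gcn20, Gcn2 phosphorylates eIF2, phosphorylated eIF2 inhibits eIF2B, general initiation drops, and translation of the GCN4 mRNA rises. Arrays measure transcript levels, so neither translation nor phosphorylation was measured here.

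The study grew wild-type BY4741, a haploid laboratory strain with deleted URA3, LEU2 and MET17 markers, in rich glucose medium at 30 °C to early exponential phase. One group of cultures stayed untreated, and the others received 0.05 mM acrolein, a reactive unsaturated aldehyde, 0.3 mM H2O2, an oxidant, or 0.016 mM NEM, for 1 h. The labels give only the abbreviation NEM, read here as the thiol-reactive compound N-ethylmaleimide. Each group holds 4 Affymetrix Yeast Genome 2.0 arrays, 16 in all, and the labels do not state whether the arrays of a group are of separate cultures. The p-values therefore cover the spread among these arrays alone, and that spread may be technical.

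All values are GCRMA log2 signals, and a difference of 1 is a doubling. A change was called when limma's Benjamini-Hochberg adjusted p over 5785 tested probe sets was under 0.05. Errors of means are SDs over 4 arrays and errors of differences are standard errors. Members read 8.52 to 15.48 on single arrays, above the highest value of probe sets for another yeast species (5.15), and the brightest probe set on any array read 16.28. The deleted markers URA3 and MET17 read 1.92, the floor of the file, on all arrays. RNA quality varied within groups: the mean ribosomal RNA signal ran from 8.75 to 11.55 on control arrays, but was 15.48 on acrolein replicate 1 and 4.38 on H2O2 replicate 4. Acrolein replicate 1 also had a 3′ minus 5′ signal of 1.20, against 0.60 to 0.78 elsewhere. The ribosomal RNA signal was higher than on the same-numbered control array in 4 of 4 pairs after acrolein and in 4 of 4 after NEM (exact paired permutation p = 0.125 for each, two-sided, n = 4 pairs, the smallest that 4 pairs allow). Some member calls changed in fits with either measure as a covariate or without these arrays, as described below.

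After acrolein, most initiation factors rose by small amounts. Of the 38 members 23 rose and 3 fell, and the background over all tested probe sets was 27.2% higher and 36.9% lower, or 64% in either direction. The members' median difference was 0.23, against -0.05 over all probe sets. H2O2 raised 3 members and lowered 0 (4 had an unadjusted p under 0.05 and a lower mean), at a background of 9.23% and 10.6%, or 19.8% in either direction, with median differences of 0.05 for the members and -0.02 over all probe sets. Without control replicate 2 or 4 or H2O2 replicate 2 the H2O2 count was 1. NEM raised 16 and lowered 6, at a background of 26.4% and 32.2%, or 58.6% in either direction, with medians of 0.11 and -0.01. As a share of members, 60.5% rose after acrolein, 7.89% after H2O2 and 42.1% after NEM. No member changed 2-fold against the control. SUI1 changed most, 1.82-fold lower after acrolein, and TIF4631 had the widest increase, 1.75-fold after acrolein. Treated and control arrays did not overlap for 21 members after acrolein, 7 after H2O2 and 19 after NEM, where this held for 57.8%, 25.2% and 54.5% of all probe sets. CAM1, CDC33, GCD2, SUP45 and TIF11 were called in no comparison with the control. The 3 comparisons share the control arrays.

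**Figure D1:**
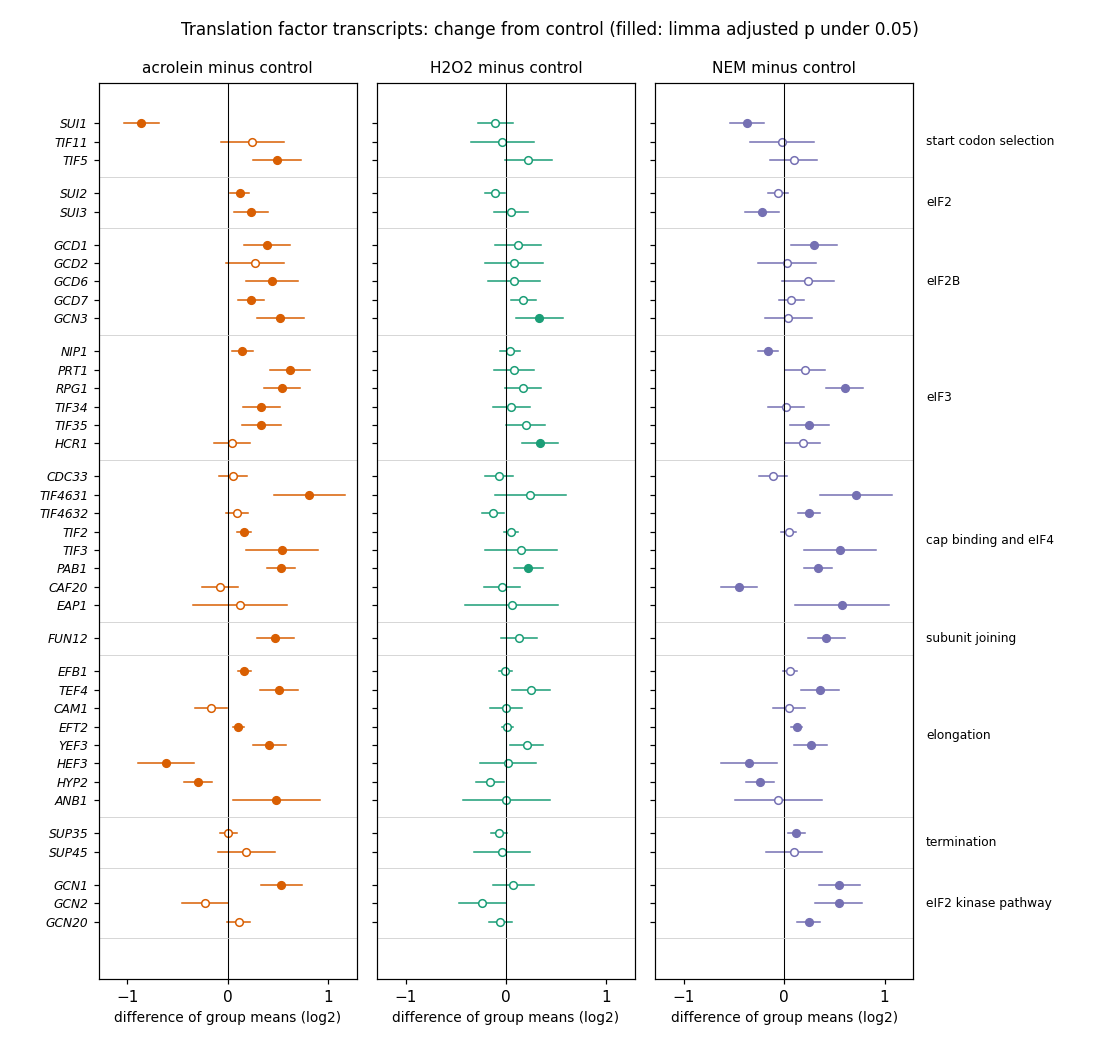
Difference from the control (log2, with 95% interval) for the 38 measured members, grouped by role, after acrolein, H2O2 and NEM; filled points have a limma adjusted p under 0.05. Most acrolein points lie to the right of 0, with SUI1 at -0.86 and HEF3 at -0.61 on the left, while H2O2 points stay between -0.24 and 0.34.

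Start codon selection was the role with the largest single change. SUI1 (YNL244C) encodes eIF1, which keeps the scanning ribosome from starting at the wrong codon and sets the stringency of start site choice. Its control arrays read 13.22, 13.44, 13.03 and 13.38. The acrolein arrays read 12.40, 12.54, 12.33 and 12.36, all below the control arrays, a fall of -0.86 ± 0.08 (adjusted p = 8.07e-07). The NEM arrays, at 12.82, 12.99, 12.87 and 12.91, lay between those groups and overlapped with neither. The fall after NEM was -0.37 ± 0.08 (adjusted p = 0.00132). After H2O2 the arrays read 13.22, 13.08, 13.11 and 13.24, inside the control range, with a difference of -0.10 ± 0.08 (adjusted p = 0.398). TIF5 encodes eIF5, the GTPase activator of eIF2 that works against eIF1 at the start codon. It moved the other way after acrolein, rising by 0.49 ± 0.11 from 12.06 ± 0.17 to 12.55 ± 0.21 (adjusted p = 0.00147). After H2O2 and NEM its differences were 0.22 ± 0.11 (adjusted p = 0.175) and 0.09 ± 0.11 (adjusted p = 0.494). TIF11, which encodes eIF1A, had a difference of 0.25 ± 0.15 after acrolein (adjusted p = 0.161), with arrays that overlapped the control arrays.

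Of the 3 subunits of eIF2, alpha (SUI2) and beta (SUI3) are members, and gamma (GCD11) belongs to the list of other factors described further below. SUI3 read 13.36, 13.51, 13.35 and 13.29 in the control and 13.60, 13.67, 13.70 and 13.46 after acrolein, where 1 treated array fell inside the control range. The rise was 0.23 ± 0.08 (adjusted p = 0.0209). After NEM it read 13.29, 13.19, 13.26 and 12.90, all under the lowest control array, a fall of -0.22 ± 0.08 (adjusted p = 0.0297). The calls thus ran in opposite directions after the 2 compounds, and the difference between acrolein and NEM itself was 0.45 ± 0.08 (adjusted p = 0.000495). The H2O2 arrays, at 13.40, 13.46, 13.44 and 13.40, lay within the control range. Both calls against the control rested on single arrays. The acrolein call ended without control replicate 4, acrolein replicate 2 or acrolein replicate 3 (adjusted p 0.0531 to 0.0611). The NEM call ended without control replicate 2 (-0.17, adjusted p = 0.093) or NEM replicate 4 (-0.13, adjusted p = 0.0846). SUI2, the subunit that Gcn2 phosphorylates, rose by 0.12 ± 0.04 after acrolein (adjusted p = 0.0325), a call lost when any 1 of 6 arrays was left out (adjusted p up to 0.102). Its differences after H2O2 and NEM were -0.11 ± 0.04 (adjusted p = 0.102) and -0.06 ± 0.04 (adjusted p = 0.254).

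The exchange factor eIF2B has 5 subunits, all of them measured. GCD1 and GCD6 encode the catalytic gamma and epsilon subunits, and GCN3, GCD7 and GCD2 encode the alpha, beta and delta subunits that sense phosphorylated eIF2. After acrolein 4 of the 5 rose, where 27.2% of all tested probe sets were called higher. GCN3 moved most: it read 11.56, 11.35, 11.57 and 11.49 in the control and 12.09, 11.91, 12.19 and 11.88 after acrolein, with all treated arrays higher, a rise of 0.52 ± 0.11 (adjusted p = 0.000847). GCD6 rose by 0.44 ± 0.12 (adjusted p = 0.00539), GCD1 by 0.39 ± 0.11 (adjusted p = 0.00589) and GCD7 by 0.23 ± 0.06 (adjusted p = 0.00355). The acrolein arrays of GCD1 and GCD6 overlapped the control arrays and those of GCD7 did not. GCD2 had a difference of 0.27 ± 0.13 (adjusted p = 0.0943).

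After H2O2 only GCN3 of this complex was called, with arrays at 11.64, 11.80, 12.02 and 11.84, all above the control arrays. The rise of 0.33 ± 0.11 (adjusted p = 0.0466) was close to the threshold and was lost without any 1 of the 4 control arrays or of H2O2 replicates 2, 3 and 4, with differences of 0.27 to 0.36 and adjusted p up to 0.128. After NEM the call fell on GCD1 alone. The share of all tested probe sets called higher was 9.23% after H2O2 and 26.4% after NEM. GCD1 read 11.60, 11.58, 11.73 and 11.57 in the control and 11.86, 11.94, 12.00 and 11.90 after NEM, where all treated arrays were higher. The rise was 0.30 ± 0.11 (adjusted p = 0.0262), and it was no longer called without control replicate 1, 2 or 4 or NEM replicate 2 or 3, where its adjusted p ran up to 0.0628. With the replicate number, which pairs the arrays of the acrolein, NEM and control groups, as a block in the fit, GCD6 was also called after NEM (0.23, adjusted p = 0.00615 against 0.114 without the block). That fit also placed the H2O2 arrays in these blocks, although their numbers did not all pair.

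The scaffold eIF3 binds the small subunit and the mRNA and holds the initiation complex together. Of its 5 core subunits, RPG1, NIP1, PRT1, TIF34 and TIF35, each rose after acrolein, where 27.2% of all tested probe sets were called higher. PRT1 (YOR361C), the b subunit, went from 13.37, 13.30, 13.42 and 13.28 to 14.11, 13.76, 14.11 and 13.86. All acrolein arrays were above all control arrays, with a rise of 0.62 ± 0.09 (adjusted p = 6.63e-05). RPG1, the a subunit, rose by 0.54 ± 0.08 (adjusted p = 8.47e-05), TIF34 by 0.34 ± 0.08 (adjusted p = 0.00332), TIF35 by 0.33 ± 0.09 (adjusted p = 0.00586) and NIP1 by 0.15 ± 0.05 (adjusted p = 0.0139). None of these 5 calls was lost when any 1 array was left out.

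NEM split the eIF3 subunits. RPG1 read 12.90, 12.76, 12.69 and 12.74 in the control and 13.50, 13.21, 13.43 and 13.34 after NEM, all higher, a rise of 0.60 ± 0.08 (adjusted p = 3.43e-05). NIP1, the c subunit, fell instead, by -0.16 ± 0.05 from 12.17 ± 0.04 to 12.01 ± 0.07 (adjusted p = 0.00779), and its NEM and acrolein arrays lay on opposite sides of the control arrays. TIF35 rose by 0.25 ± 0.09 (adjusted p = 0.0302), but not without NEM replicate 3 (0.17, adjusted p = 0.098) or, with smaller shifts, control replicate 1 or 4 or NEM replicate 1. PRT1 had a difference of 0.21 ± 0.09 (adjusted p = 0.0717; 0.0296 with the replicate block) and TIF34 one of 0.02 ± 0.08 (adjusted p = 0.875).

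HCR1, the loosely bound j subunit that also acts in termination and ribosome recycling, differed from the core. It was the 1 eIF3 gene called after H2O2, where 9.23% of all tested probe sets were called higher, and was not called after acrolein. The control arrays read 13.30, 12.98, 13.09 and 13.21 and the H2O2 arrays 13.36, 13.47, 13.39 and 13.70, all higher. The rise was 0.34 ± 0.08 (adjusted p = 0.0106) and was kept when each array was left out in turn. After acrolein the arrays, at 13.18, 13.05, 13.26 and 13.25, lay inside the control range (0.04 ± 0.08, adjusted p = 0.7). HCR1 was 0.30 ± 0.08 lower after acrolein than after H2O2 (difference -0.30, adjusted p = 0.00743), a call lost with the ribosomal RNA signal as a covariate (-0.21, adjusted p = 0.0699). Its difference after NEM was 0.18 ± 0.08 (adjusted p = 0.0699; 0.0408 with the replicate block).

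**Figure D2:**
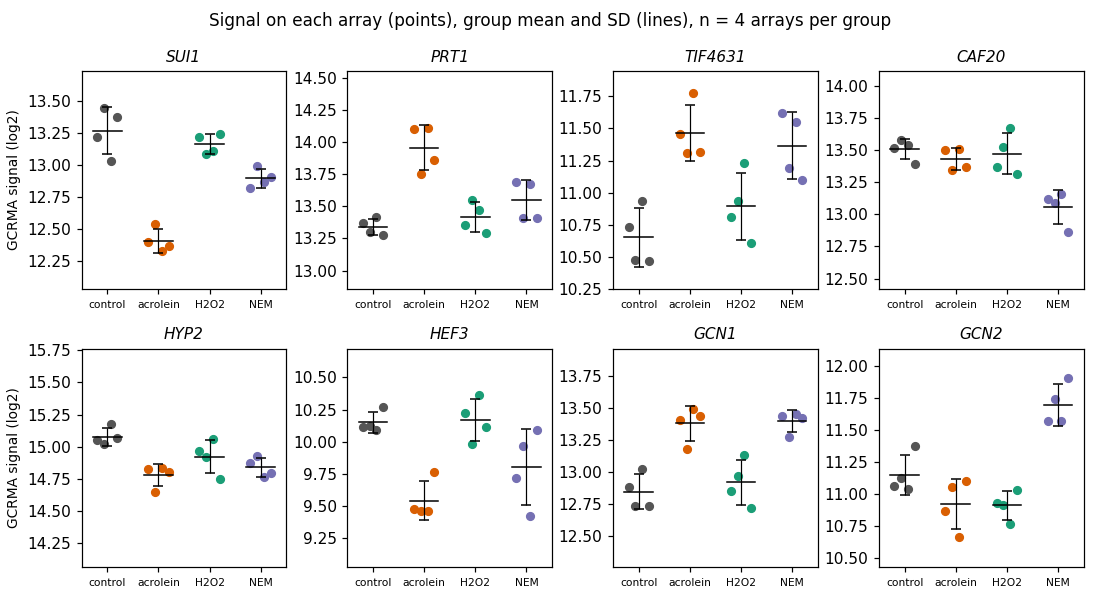
GCRMA log2 signal on each of the 16 arrays (points) with group means (horizontal lines) for 8 members with large changes; vertical lines are SDs and each panel has its own axis range. SUI1 is lowest on the acrolein arrays (12.33 to 12.54), GCN2 is highest on the NEM arrays (11.57 to 11.90), and HEF3 is lower on the acrolein arrays (9.46 to 9.77) than on the control arrays (10.09 to 10.27).

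The cap-binding complex eIF4F joins eIF4E (CDC33), which holds the cap, to the scaffold eIF4G, made from the paralogs TIF4631 and TIF4632, and to the helicase eIF4A (TIF1 and TIF2). TIF4631 (YGR162W) had the largest rise of all members after both acrolein and NEM. It read 10.73, 10.47, 10.94 and 10.46 in the control, 11.45, 11.31, 11.77 and 11.31 after acrolein and 11.62, 11.19, 11.55 and 11.10 after NEM. Both treated groups lay wholly above the control, by 0.81 ± 0.16 (adjusted p = 0.000732) and 0.71 ± 0.16 (adjusted p = 0.00211). The H2O2 arrays, at 10.81, 10.94, 11.23 and 10.61, overlapped the control arrays (0.24 ± 0.16, adjusted p = 0.338). Its paralog TIF4632 read 11.92, 11.87, 11.83 and 11.77 in the control and 11.87, 11.92, 11.95 and 12.01 after acrolein, with overlapping arrays and a difference of 0.09 ± 0.05 (adjusted p = 0.119). After NEM it read 12.04, 12.05, 12.24 and 12.05, above the control, a rise of 0.25 ± 0.05 (adjusted p = 0.000798). After H2O2 it read 11.69, 11.76, 11.76 and 11.64, below every control array by a mean of -0.13 ± 0.05, which was not called (adjusted p = 0.0821).

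The cap-binding protein itself, CDC33, did not pass the test after any treatment, with differences of 0.05 ± 0.06 after acrolein (95% interval -0.09 to 0.19), -0.07 ± 0.06 after H2O2 and -0.11 ± 0.06 after NEM. The shared eIF4A probe set of TIF2 read 14.91, 14.87, 14.89 and 14.82 in the control and 15.06, 15.00, 15.08 and 15.02 after acrolein, a small rise of 0.16 ± 0.03 on arrays that did not overlap (adjusted p = 0.000611). After H2O2 it read 14.90, 14.93, 14.94 and 14.93 and after NEM 14.98, 14.88, 14.96 and 14.85, and neither was called (adjusted p = 0.321 and 0.276). TIF3, which encodes the eIF4A cofactor eIF4B, rose by 0.54 ± 0.17 after acrolein and by 0.55 ± 0.17 after NEM (adjusted p = 0.0115 for each).

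PAB1, the poly(A)-binding protein that links the mRNA tail to eIF4G, was called higher after all 3 treatments. Its control arrays read 14.28, 14.02, 14.06 and 14.08. They were 14.53, 14.62, 14.78 and 14.62 after acrolein and 14.49, 14.37, 14.47 and 14.48 after NEM, both wholly above the control, with rises of 0.53 ± 0.06 (adjusted p = 1.09e-05) and 0.34 ± 0.06 (adjusted p = 0.000522). The H2O2 arrays read 14.27, 14.32, 14.29 and 14.46, with the lowest just inside the control range, a rise of 0.22 ± 0.06 (adjusted p = 0.0269). That H2O2 call was lost without control replicate 2, 3 or 4 or H2O2 replicate 2 or 4, with differences of 0.18 to 0.23 and adjusted p up to 0.0823.

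CAF20 and EAP1 encode the eIF4E-binding proteins, which compete with eIF4G for eIF4E and repress translation of particular mRNAs. Neither was called after acrolein or H2O2 without a covariate, and NEM moved them in opposite directions. CAF20 fell by -0.45 ± 0.08 after NEM, from 13.51 ± 0.08 to 13.06 ± 0.13, with all NEM arrays below the control arrays (adjusted p = 0.000376). EAP1 rose by 0.58 ± 0.22, from 12.34 ± 0.25 to 12.92 ± 0.30, with overlapping arrays (adjusted p = 0.0338). The EAP1 call was lost without control replicate 2 or 3 or NEM replicate 1, 2 or 4, where the difference ran from 0.45 to 0.59 and the adjusted p up to 0.0989. After acrolein CAF20 differed by -0.08 ± 0.08 (adjusted p = 0.43). EAP1 differed by 0.12 ± 0.22 after acrolein, a value that changed sign to -0.028 without acrolein replicate 4. With the ribosomal RNA signal as a covariate both genes were called after acrolein, EAP1 at 0.32 (adjusted p = 0.0251) and CAF20 at -0.15 (adjusted p = 0.0304).

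FUN12 encodes eIF5B, the GTPase that joins the large ribosomal subunit at the end of initiation. It read 13.78, 13.58, 13.64 and 13.58 in the control, 14.29, 14.02, 14.21 and 13.95 after acrolein and 14.16, 13.97, 14.21 and 13.92 after NEM. Both treated groups lay above every control array, by 0.47 ± 0.08 (adjusted p = 0.000262) and 0.42 ± 0.08 (adjusted p = 0.000783). After H2O2 it read 13.67, 13.85, 13.81 and 13.76, which overlapped the control (0.13 ± 0.08, adjusted p = 0.32).

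Elongation factors moved in both directions. Acrolein raised 5 of the 8 measured genes and lowered 2, NEM raised 3 and lowered 2, and H2O2 changed 0 by limma (3 at an unadjusted p under 0.05). Over all probe sets 27.2% were higher and 36.9% lower after acrolein, 26.4% and 32.2% after NEM, and 9.23% and 10.6% after H2O2. The NEM counts lay near these shares. The exchange factor eEF1B, which recharges eEF1A with GTP, is built from EFB1 (alpha) and from TEF4 or CAM1 (gamma). TEF4 read 13.64, 13.39, 13.80 and 13.48 in the control, 14.17, 13.96, 14.14 and 14.09 after acrolein and 13.95, 13.85, 14.09 and 13.85 after NEM. Both treated groups were above the control, by 0.51 ± 0.09 (adjusted p = 0.000186) and 0.36 ± 0.09 (adjusted p = 0.00327). The H2O2 arrays, at 13.70, 13.87, 13.94 and 13.79, overlapped the control (0.25 ± 0.09, adjusted p = 0.0632). CAM1, the other gamma subunit, had a difference of -0.17 ± 0.07 after acrolein (adjusted p = 0.0641), which was called with the replicate block (adjusted p = 0.00158), and of 0.05 ± 0.07 after NEM (adjusted p = 0.606). EFB1 rose by 0.17 ± 0.03 after acrolein (adjusted p = 0.000379).

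The translocation factor eEF2, read from the probe set of EFT2, was near the top of the array's range. It read 15.32, 15.33, 15.34 and 15.34 in the control, 15.42, 15.44, 15.48 and 15.40 after acrolein, 15.38, 15.38, 15.33 and 15.29 after H2O2 and 15.47, 15.43, 15.45 and 15.47 after NEM. The acrolein and NEM arrays lay above the control, but only by 0.10 ± 0.03 (adjusted p = 0.00277) and 0.12 ± 0.03 (adjusted p = 0.000841), and after quantile normalization the NEM difference was 0.08 (adjusted p = 0.00522).

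YEF3 and HEF3 are paralogs for eEF3, the fungal ATPase that removes deacylated tRNA from the ribosome, and YEF3 is the gene used in growing cells. YEF3 read 14.98, 14.86, 14.92 and 14.68 in the control and 15.31, 15.23, 15.36 and 15.19 after acrolein, all higher, a rise of 0.41 ± 0.08 (adjusted p = 0.000376). After NEM it read 15.22, 15.09, 15.19 and 15.00, also above the control, by 0.26 ± 0.08 (adjusted p = 0.00923). The H2O2 arrays were 15.01, 15.14, 15.20 and 14.91 and overlapped the control (0.20 ± 0.08, adjusted p = 0.0801).

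HEF3 did the reverse. It read 10.11, 10.12, 10.09 and 10.27 in the control, and after acrolein 9.47, 9.46, 9.46 and 9.77, all lower, a fall of -0.61 ± 0.13 (adjusted p = 0.000996). After NEM it read 9.71, 9.97, 9.42 and 10.09, a spread that reached the lowest control array, with a fall of -0.35 ± 0.13 (adjusted p = 0.0319). The NEM call was lost without control replicate 2 or 4 or NEM replicate 1 or 3, and without NEM replicate 3 the difference shrank to -0.22 (adjusted p = 0.0984). The H2O2 arrays of HEF3, at 10.22, 9.98, 10.36 and 10.11, lay around the control. The change of YEF3 minus that of HEF3 was 1.02 after acrolein, 0.62 after NEM and 0.18 after H2O2 (exact permutation p = 0.0286, 0.0286 and 0.314, two-sided, 4 against 4 arrays).

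The other paralog pair, HYP2 and ANB1, encodes eIF5A, the hypusine-carrying factor that helps ribosomes through stalling sequences and in termination. HYP2 is the form made with oxygen and ANB1 the form made without it. HYP2 read 15.05, 15.02, 15.18 and 15.06 in the control and 14.83, 14.65, 14.83 and 14.80 after acrolein, all lower, a fall of -0.30 ± 0.06 (adjusted p = 0.00121). After NEM it read 14.87, 14.92, 14.76 and 14.80, also below the control, by a mean of -0.24 ± 0.06 (adjusted p = 0.00632). After H2O2, at 14.96, 14.92, 15.06 and 14.75, it overlapped the control (-0.16 ± 0.06, adjusted p = 0.11). ANB1 read 8.64, 8.81, 8.63 and 8.91 in the control and 9.80, 8.80, 9.48 and 8.84 after acrolein, where replicates 1 and 3 were high and replicates 2 and 4 lay in the control range. The rise of 0.48 ± 0.20 (adjusted p = 0.0493) rested on few arrays: without acrolein replicate 1, the array that stands apart in RNA quality, it was 0.29 (adjusted p = 0.162), and with the replicate block its adjusted p was 0.0719. It was also lost without acrolein replicate 3 or any 1 of the 4 control arrays, with adjusted p up to 0.129. ANB1 read 8.58, 8.92, 8.62 and 8.86 after H2O2 and 8.60, 8.58, 9.06 and 8.52 after NEM, around the control arrays in both.

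The differences of change within paralog pairs were tested over 9 pair and treatment combinations, an added test. HYP2 minus ANB1 was -0.78 after acrolein and TIF4631 minus TIF4632 was 0.72 (exact permutation p = 0.0286 for each, two-sided, n = 4 per group). For H2O2 and NEM, the TIF4631 and TIF4632 difference was 0.37 and 0.47 (exact permutation p = 0.0571 for each), and the HYP2 and ANB1 difference was -0.16 and -0.18 (exact permutation p = 0.4 and 0.429). The smallest p that 4 arrays against 4 allow is 0.0286. After adjustment over the 9 tests it became 0.0643 for the 4 combinations that reached it, so none passed 0.05. The probe sequences were not used here, and cross-hybridisation between paralogs was not tested.

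Of the 2 release factors, 1 was called after NEM, where 58.6% of all tested probe sets were called in either direction, and 0 after acrolein or H2O2. SUP35 encodes eRF3 and SUP45 eRF1, which recognises the stop codon. SUP35 read 13.04, 12.95, 12.99 and 12.92 in the control and 13.17, 13.08, 13.04 and 13.09 after NEM, where the lowest NEM array stood just above the highest control array. The rise was 0.12 ± 0.04 (adjusted p = 0.0165), and it was lost without control replicate 4 or NEM replicate 1 (adjusted p = 0.0529 and 0.0573). The acrolein arrays of SUP35, at 12.94, 12.95, 13.07 and 12.97, gave a difference of 0.00 ± 0.04 (95% interval -0.08 to 0.09). H2O2 arrays read 12.92, 12.87, 12.96 and 12.87 (-0.07 ± 0.04, adjusted p = 0.238). SUP45 differed by 0.18 ± 0.13 after acrolein, -0.04 ± 0.13 after H2O2 and 0.10 ± 0.13 after NEM, and none was called (adjusted p = 0.235, 0.888 and 0.545).

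In the eIF2 kinase pathway, the kinase gene and its activator did not move together after acrolein. GCN1 encodes the ribosome-bound protein that passes the signal of uncharged tRNA to Gcn2. It read 12.88, 12.74, 13.02 and 12.74 in the control, 13.41, 13.18, 13.49 and 13.44 after acrolein and 13.43, 13.27, 13.45 and 13.42 after NEM. Both treated groups lay above every control array, by 0.53 ± 0.09 (adjusted p = 0.000235) and 0.55 ± 0.09 (adjusted p = 0.000211). The H2O2 arrays, at 12.85, 12.97, 13.13 and 12.72, overlapped the control (0.07 ± 0.09, adjusted p = 0.645).

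GCN2 (YDR283C), the kinase, read 11.06, 11.12, 11.04 and 11.38 in the control and 11.57, 11.74, 11.57 and 11.90 after NEM. All NEM arrays were higher, a rise of 0.54 ± 0.11 (adjusted p = 0.00073). After acrolein it read 10.87, 11.05, 10.67 and 11.10, partly inside the control range, with a difference of -0.23 ± 0.11 (adjusted p = 0.082; 0.00204 with the replicate block). After H2O2 the arrays, at 10.93, 10.92, 10.77 and 11.04, all lay under the lowest control array, with a difference of -0.24 ± 0.11 (adjusted p = 0.144). With the replicate block, in which the H2O2 numbers did not all pair, that adjusted p was 0.00626. GCN20, which encodes the ATP-binding partner of Gcn1, rose by 0.24 ± 0.05 after NEM (adjusted p = 0.00139). It differed by 0.11 ± 0.05 after acrolein (adjusted p = 0.0831; 0.0171 with the replicate block) and by -0.06 ± 0.05 after H2O2 (adjusted p = 0.513). All 3 genes of this pathway were therefore called higher after NEM, and GCN1 alone after acrolein. Over all tested probe sets 26.4% were called higher after NEM and 27.2% after acrolein. All 3 genes are longer than the median member length of 1439.5 bases, and 38.9% of named genes above that length rose after NEM.

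With the replicate block the acrolein count became 23 higher and 5 lower, since CAM1 and GCN2 joined SUI1, HEF3 and HYP2 among the lower genes and GCN20 replaced ANB1 among the higher ones. Leaving out acrolein replicate 4 also gave 5 lower genes.

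The treatments were then compared with each other to see where the members differed between them. The doses differed, so these comparisons describe the conditions used and rank no compound. Acrolein gave 17 members higher and 3 lower than H2O2, at a background of 25.9% and 29.9%, or 55.9% in either direction. It gave 14 higher and 5 lower than NEM, at a background of 24.1% and 25.8%, or 49.9% in either direction. NEM gave 9 higher and 6 lower than H2O2, at a background of 25.1% and 27.2%, or 52.3% in either direction. The arrays did not overlap for 17 members between acrolein and H2O2, 13 between acrolein and NEM and 12 between NEM and H2O2, where this held for 46.8%, 40.2% and 46.4% of all probe sets. The 5 lower genes of the acrolein and NEM comparison dropped to 2 without acrolein replicate 1 and to 3 without acrolein replicate 2 or NEM replicate 4.

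GCN2 had the largest of these differences. It was 0.77 lower after acrolein than after NEM (difference -0.77 ± 0.11, adjusted p = 8.93e-05) and 0.78 ± 0.11 higher after NEM than after H2O2 (adjusted p = 4.1e-05), and its NEM arrays lay above all others. SUI1 followed, with acrolein arrays below all others: the difference was -0.76 ± 0.08 from H2O2 (adjusted p = 4.3e-06) and -0.49 ± 0.08 from NEM (adjusted p = 0.000269). HEF3 was lower after acrolein than after H2O2 by a difference of -0.63 ± 0.13 (adjusted p = 0.00109). PRT1 was 0.54 ± 0.09 higher after acrolein than after H2O2 (adjusted p = 0.000289) and 0.41 ± 0.09 higher than after NEM (adjusted p = 0.00284).

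Several subunits of the ternary complex machinery were higher after acrolein than after NEM. Beside SUI3, these were SUI2 (0.18 ± 0.04, adjusted p = 0.00492), GCN3 (0.48 ± 0.11, adjusted p = 0.00261) and GCD7 (0.16 ± 0.06, adjusted p = 0.0374). The GCD7 call was lost without acrolein replicate 3 or 4 or NEM replicate 2 or 3 (differences of 0.12 to 0.16, adjusted p up to 0.117), with median centring and with 2 groups alone. The other eIF2B subunits, GCD1, GCD2 and GCD6, were not called between acrolein and NEM, with differences of 0.09 ± 0.11, 0.24 ± 0.13 and 0.21 ± 0.12. NIP1 was 0.31 ± 0.05 higher (adjusted p = 0.00014) and CAF20 0.37 ± 0.08 higher (adjusted p = 0.00248). RPG1, GCN1, FUN12 and TIF4631 were not called between acrolein and NEM. The difference in TIF4631 between acrolein and H2O2 was 0.57 ± 0.16 (adjusted p = 0.0101), and with the ribosomal RNA signal as a covariate it was 0.32 (adjusted p = 0.109). FUN12, called between those 2 treatments at 0.34 ± 0.08 (adjusted p = 0.00363), kept a difference of 0.21 with that covariate (adjusted p = 0.0368), while YEF3 (0.21 ± 0.08, adjusted p = 0.0338) fell to 0.06 (adjusted p = 0.374). The YEF3 call was also lost without acrolein replicate 1 (0.20, adjusted p = 0.0724) and without H2O2 replicate 4 (0.16, adjusted p = 0.107).

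Several of these calls changed in the fits that held RNA quality or left out the arrays that stood apart in it. Of the calls between acrolein and H2O2, 10 were lost with the ribosomal RNA covariate, those of TEF4, YEF3, GCD6, GCN20, TIF4631, TIF34, HCR1, GCD1, EFT2 and TIF2. Without acrolein replicate 1 and H2O2 replicate 4 together, 7 of these 10 were lost, all but HCR1, EFT2 and TIF2. Between NEM and H2O2 the covariate ended the calls of SUI1, TIF4631 and HEF3, and the removal of both arrays those of GCN3 and TIF4631. Between acrolein and NEM the removal ended the calls of CAM1, SUP35, TIF4632, CDC33 and ANB1, and the covariate that of CDC33. Against the control the ribosomal RNA covariate ended 1 call, that of ANB1 after acrolein, and the removal ended those of ANB1 and SUI2 after acrolein and GCN3 and PAB1 after H2O2. The 3′ minus 5′ covariate ended the calls of ANB1 and SUI3 after acrolein and of GCN3 after H2O2. In the other direction, further members were called after H2O2 with the ribosomal RNA covariate, and the full count is given at the end. Among them were TEF4 (0.30, adjusted p = 0.0205), YEF3 (0.28, adjusted p = 0.0014) and GCN2 (-0.33, adjusted p = 0.0167). Members called after NEM with that covariate included HCR1 and PRT1 (adjusted p = 0.0344 and 0.0478). YEF3 was also called after H2O2 without H2O2 replicate 4 (0.26, adjusted p = 0.0404).

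Because the longest members were often those that rose after NEM, the change was set beside gene length, an added description with no test. Length is that of the gene in the reference table, without UTRs and with introns counted. Across the 38 members, which share arrays and are not independent, Spearman's rho between length and change was 0.62 after NEM, 0.23 after acrolein and 0.16 after H2O2. Over all 5404 named genes it was 0.29, 0.15 and 0.09. Leaving out 1 array at a time moved the NEM value for the members between 0.58 and 0.63, and the H2O2 value dropped to 0.03 without H2O2 replicate 3.

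Divided at the median member length of 1439.5 bases, 14 of the 19 longer members rose after NEM and 2 fell, while 2 of the 19 shorter ones rose and 4 fell. Over all named genes, 38.9% of the 2244 longer ones rose after NEM and 19.2% of the 3160 shorter ones. The shares that fell were 22.8% of the longer and 39.9% of the shorter ones. For the longest of 10 classes of genes by length the median change was 0.26 after NEM, 0.04 after acrolein and -0.03 after H2O2, and for the shortest class it was -0.24, -0.27 and -0.11. SUI1, HYP2 and CAF20, short genes, fell after NEM, and GCN1, GCN2, TIF4631, RPG1 and FUN12, long genes, rose. Against that order, HEF3 and NIP1, also long, fell, and TIF3 and TIF35, shorter than the median, rose. After acrolein 11 of the shorter members rose and 12 of the longer ones, against 25.5% of the shorter and 32.0% of the longer named genes. The mean 3′ minus 5′ signal of the NEM arrays differed from that of the control arrays by 0.03 (exact permutation p = 0.4, two-sided, n = 4 per group) and their ribosomal RNA signal by 0.93 (exact permutation p = 0.4). Within same-numbered pairs the NEM array had the higher ribosomal RNA signal each time, by 0.80, 1.26, 1.17 and 0.48. The unpaired difference was 0.31 without control replicate 4, 0.56 without NEM replicate 3 and 1.70 without NEM replicate 4 (exact permutation p = 0.8, 0.629 and 0.0571). With the ribosomal RNA signal as a covariate Spearman's rho for the members after NEM was 0.62, and with the 3′ minus 5′ signal it was 0.64.

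**Figure D3:**
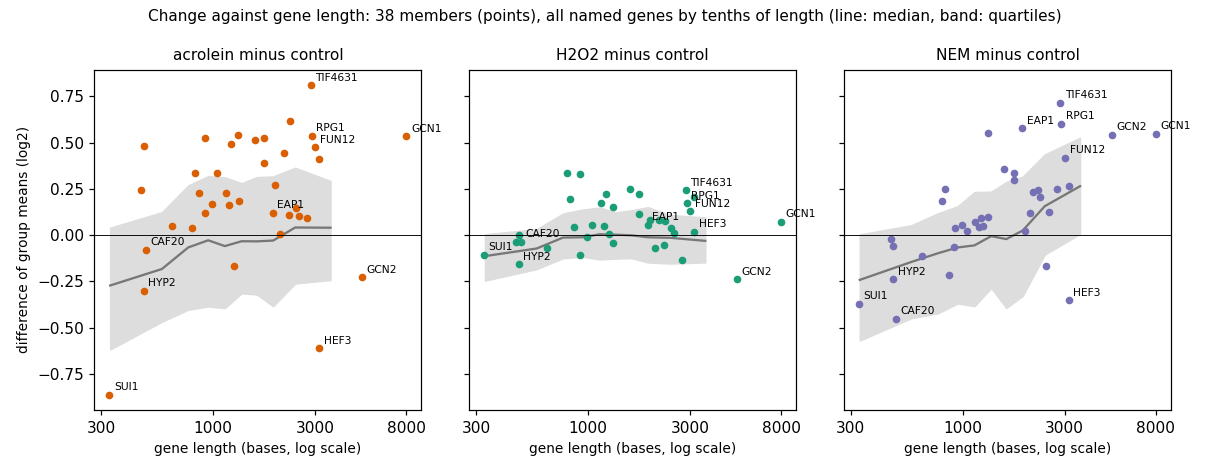
Difference from the control (log2) against gene length (bases, log axis) for the 38 members (points) after acrolein, H2O2 and NEM; the line and band give the median and quartiles over all named genes in 10 classes of length. After NEM the points climb with length (Spearman's rho 0.62) as does the line, and HEF3 and NIP1, long genes that fell, lie below the line.

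Other translation genes were taken from 4 further lists, which name other cytosolic and ribosome-linked factors, enzymes that modify translation factors, mitochondrial translation factors, and phosphatase and Tor genes. Of 22 measured genes among the other factors, acrolein raised 11 and lowered 5, H2O2 raised 2 and lowered 1, and NEM raised 7 and lowered 1. The background given above was 27.2% higher and 36.9% lower after acrolein, 9.23% and 10.6% after H2O2, and 26.4% and 32.2% after NEM, so the H2O2 and NEM counts of higher genes lay near it. The list's median difference was 0.23, 0.04 and 0.13. NEW1, an ATPase related to eEF3, and RBG1, a ribosome-associated GTPase, led after each treatment. NEW1 rose by 1.05 ± 0.18 after acrolein (adjusted p = 0.000217), 0.62 ± 0.18 after H2O2 (adjusted p = 0.0297) and 0.75 ± 0.18 after NEM (adjusted p = 0.00314). RBG1 rose by 1.02 ± 0.12, 0.53 ± 0.12 and 0.71 ± 0.12 (adjusted p = 8.66e-06, 0.00784 and 0.000219). After acrolein RBG2, its relative, rose by 0.90 ± 0.20 (adjusted p = 0.00154) and RLI1, the ribosome recycling ATPase, by 0.87 ± 0.14 (adjusted p = 0.000128). After NEM CLU1, an eIF3-associated protein, rose by 0.44 ± 0.05 (adjusted p = 1.38e-05) and TMA22, a ribosome-associated factor, by 0.28 ± 0.05 (adjusted p = 0.000264). The NEW1 call after H2O2 was lost in 5 of the alternative settings.

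GCN4, the transcription factor whose mRNA is translated when eIF2 is phosphorylated, was the 1 gene of this list that fell after H2O2, by -0.09 ± 0.03 from 15.28 ± 0.06 (adjusted p = 0.0398), a call lost in 14 settings. It was also lower after acrolein (-0.30 ± 0.03, adjusted p = 1.09e-06) and NEM (-0.23 ± 0.03, adjusted p = 1.39e-05). GCD11, the gamma subunit of eIF2, rose by 0.44 ± 0.06 after acrolein (adjusted p = 4.71e-05) and differed by 0.06 ± 0.06 after H2O2 and 0.12 ± 0.06 after NEM (adjusted p = 0.554 and 0.138). The acrolein and NEM values of GCN4 and those of GCD11 are given because of their roles and were chosen after the values were seen.

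Enzymes that modify translation factors held the widest rise of the 4 lists, that of LIA1. Of 18 measured genes acrolein raised 12 and lowered 1, H2O2 raised 5, and NEM raised 5 and lowered 1, where the NEM count of higher genes lay near the background of 26.4% and the backgrounds for acrolein and H2O2 were 27.2% and 9.23%. LIA1, the hydroxylase that completes hypusine on eIF5A, rose from 9.37 ± 0.25 by 1.98 ± 0.19 after acrolein, a 3.96-fold change (adjusted p = 9.53e-07). Its rise was 1.06 ± 0.19 after H2O2 (adjusted p = 0.00134) and 1.57 ± 0.19 after NEM (adjusted p = 8.6e-06), with all treated arrays above the control each time. DYS1, which carries out the first step of hypusine formation, rose by 0.61 ± 0.12 after acrolein (adjusted p = 0.000561), on arrays all above the control, a value added after it was seen. It rose after H2O2 by 0.39 ± 0.12 (adjusted p = 0.0365), a call lost in 7 settings. Of the transcripts of its substrate, that of HYP2 fell after acrolein and NEM, as described above.

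The DPH genes serve the synthesis of diphthamide, a modified residue of eEF2. DPH1 rose by 1.27 ± 0.23 after acrolein (adjusted p = 0.000327). DPH2, DPH5 and DPH6 also rose after acrolein, by 0.99 ± 0.16, 0.91 ± 0.16 and 0.29 ± 0.08 (adjusted p = 9.96e-05, 0.000197 and 0.00616), with all acrolein arrays above the control, values added after they were seen. RRT2, of the same list, was not called after acrolein (0.08 ± 0.08, adjusted p = 0.406), with overlapping arrays. DPH5 rose by 0.54 ± 0.16 after H2O2 (adjusted p = 0.0274), a call lost in 6 settings, and by 0.49 ± 0.16 after NEM (adjusted p = 0.0156). DPH2 rose by 0.43 ± 0.16 after NEM (adjusted p = 0.0297), a call lost in 4 settings. KTI11, which serves both diphthamide synthesis and the Elongator tRNA modification complex, fell by 1.04 on the log2 scale after NEM (difference -1.04 ± 0.11, adjusted p = 2.73e-06). It was also the 1 gene of the list lower after acrolein (-0.54 ± 0.11, adjusted p = 0.000726), a value named after it was seen. JJJ3, another diphthamide gene, was called higher after acrolein, but its group means, 3.46 ± 1.16 and 1.98 ± 0.02, were both under the highest other-species value of 5.15, and with a floor of 4 the difference was 0.26 (adjusted p = 0.192). EFM4, an elongation factor methyltransferase, rose by 1.25 ± 0.32 after acrolein (adjusted p = 0.00373), and TPA1, a termination-linked oxygenase, rose by 0.71 ± 0.15 after H2O2 (adjusted p = 0.00493). TPA1 was also called higher after acrolein, by 0.66 ± 0.15 (adjusted p = 0.00183), a value added after it was seen.

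The mitochondrial translation factors mostly fell. Of 8 genes acrolein lowered 6, with a median of -0.40, and NEM lowered 5 and raised 1, with a median of -0.22. Over all probe sets 36.9% were lower after acrolein, 32.2% after NEM and 10.6% after H2O2, with medians of -0.05, -0.01 and -0.02. IFM1, the mitochondrial initiation factor related to bacterial IF2, fell by -1.35 ± 0.16 after acrolein (adjusted p = 7.27e-06) and -0.55 ± 0.16 after NEM (adjusted p = 0.00924). MEF2, a mitochondrial ribosome recycling factor, fell by -1.09 ± 0.15 after acrolein (adjusted p = 3.41e-05), and GUF1, a translational GTPase, by -0.50 ± 0.15 (adjusted p = 0.0114). TUF1, mitochondrial elongation factor Tu, fell by -0.45 ± 0.04 after both (adjusted p = 1.04e-06 and 1.02e-06). MRF1, the mitochondrial release factor, fell by -0.46 ± 0.07 after NEM (adjusted p = 7.95e-05), while MEF1, mitochondrial elongation factor G, was the 1 gene of this list that rose after NEM, by 0.28 ± 0.10 (adjusted p = 0.0245), a call lost in 3 settings. MEF1 was among the genes that fell after acrolein (-0.32 ± 0.10, adjusted p = 0.0105), a value added after it was seen. AIM23, a mitochondrial initiation factor, was the 1 gene called after H2O2, at -0.23 ± 0.06 (adjusted p = 0.021), a call lost in 4 settings.

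The phosphatase and Tor genes encode proteins that act on eIF2, eIF4 or Gcn2 control. Of 6 genes acrolein lowered 3, NEM lowered 2 and H2O2 changed 0 by limma (1 at an unadjusted p under 0.05). The background of lower calls was 36.9% after acrolein, 32.2% after NEM and 10.6% after H2O2, so the NEM count lay near it. TOR1, the growth-regulating kinase, fell by -0.48 ± 0.09 after acrolein (adjusted p = 0.000282). SIT4, a phosphatase of the Tor pathway, fell by -0.15 ± 0.04 after acrolein (adjusted p = 0.00297) and -0.21 ± 0.04 after NEM (adjusted p = 0.000242). TOR2 after acrolein (-0.15 ± 0.06, adjusted p = 0.0386) and TAP42, which binds Sit4, after NEM (-0.23 ± 0.09, adjusted p = 0.0442) lost their calls in 14 and 9 settings.

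**Figure D4:**
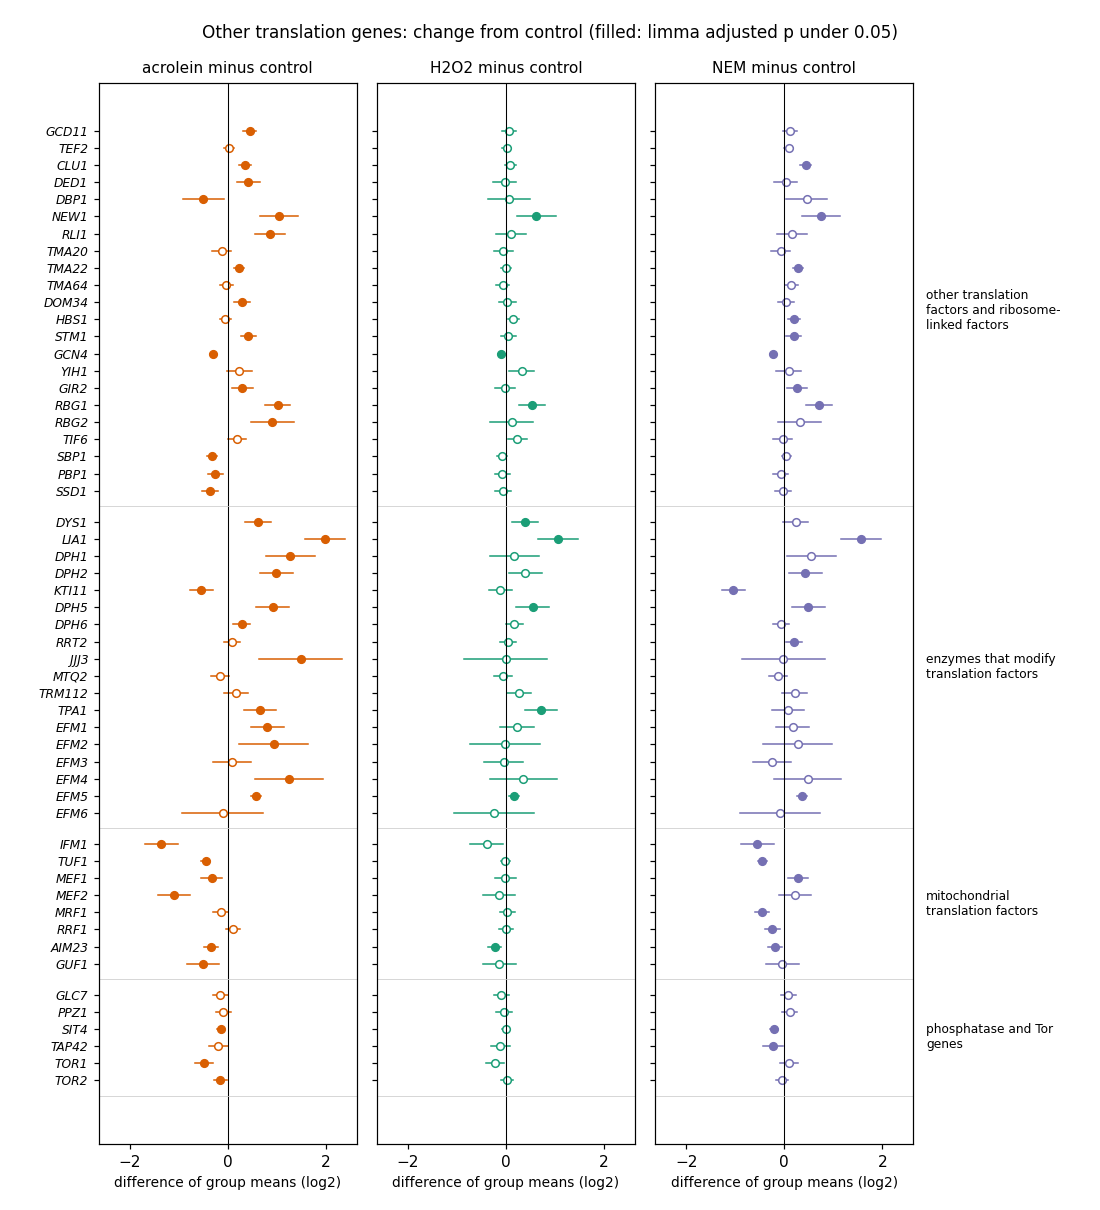
Difference from the control (log2, with 95% interval) for the genes of 4 further translation lists after acrolein, H2O2 and NEM; filled points have a limma adjusted p under 0.05. LIA1 lies farthest to the right in each panel apart from the floor-level JJJ3 interval, and the mitochondrial factors lie mostly to the left after acrolein and NEM.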

How the data were processed

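The deposited values are log2 signals that the authors made with GCRMA, which corrects probe background, normalises across arrays and summarises probes, per the submitters' processing notes. The sources used here give no version of it. They were taken as deposited, and array medians over the tested probe sets were 11.85 to 11.92. From 10928 probe sets, 166 controls, 1747 for another species and all constant ones were removed. Gene names are from the platform annotation and the R64 gene table. Where a gene had several probe sets, the brightest was kept, which removed 49 but none of a member. In total 5785 were tested, 5404 of them named genes.

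A single limma 3.58.1 model (R 4.3.3) held the 16 arrays and a mean for each group. It left 12 residual degrees of freedom, and standard errors of differences had a median of 0.086. Comparisons were two-sided with Benjamini-Hochberg adjusted p-values over 5785 probe sets. Exact tests ran in scipy 1.17.1, tables in pandas 2.3.3 and numpy 2.4.6, and figures in matplotlib 3.10.9, under Python 3.11.15. The model was tested on simulated data.

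The members, lists and tests were chosen with earlier results of these data known. Values on every array are given for the called member with the largest difference per role and treatment, the paralog pairs, GCN2 and the largest differences between treatments. Up to 4 called genes are named per further list and treatment.

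Replicate numbers were checked for pairing. Residuals of same-numbered arrays correlated at 0.20 to 0.45 for control and acrolein, at 0.32 to 0.56 for control and NEM, and at 0.32 to 0.45 for acrolein and NEM. Those 3 groups were thus treated as paired in an alternative fit. For H2O2 and control, replicates 3 and 4 correlated at 0.69 and 0.58 but 1 and 2 at -0.19 and -0.046, so H2O2 did not pair throughout. The block fit still placed the H2O2 arrays in blocks by number, so its block effects and spread draw on them. H2O2 replicates 1 and 2 correlated at 0.42 and 0.40 with control replicates 2 and 1. They correlated at 0.47 and 0.51 with acrolein replicates 2 and 1, and at 0.44 and 0.49 with NEM replicates 2 and 1. These numbers were not crossed in the block fit. The other alternatives were 2 groups alone, another prior, array weights, quantile normalization, median centring, a dim filter at 6, a floor of 4, averaged probe sets, a ribosomal RNA covariate, stricter thresholds and each array left out. Chosen after seeing the data were a 3′ minus 5′ covariate and the removal of acrolein replicate 1 with H2O2 replicate 4.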

Additional observations from a re-analysis of the deposited data

Results flagged for a closer look

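In 7 of 152 groups of 4 arrays, 1 array stood far from the other 3, by the 95% critical value of Dixon's test, where chance gives about 7.6 such groups. TIF4632 read 12.24 on NEM replicate 3, against 12.04 to 12.05 on the other NEM arrays. PAB1 read 14.37 on NEM replicate 2, against 14.47 to 14.49. HEF3 stood high on replicate 4 of the control, at 10.27 against 10.09 to 10.12, and of acrolein, at 9.77 against 9.46 to 9.47. HYP2 read 14.65 on acrolein replicate 2, against 14.80 to 14.83, and GCN1 read 13.27 on NEM replicate 2, against 13.42 to 13.45. ANB1 read 9.06 on NEM replicate 3, against 8.52 to 8.60.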

How the results depend on the processing

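Of 105 calls of members over the 6 comparisons, 0 changed direction, 72 were kept in every alternative fit and 79 when each array was left out. Of the 105, the calls lost numbered 3 with the replicate block, 17 with 2 groups alone, 15 with the ribosomal RNA covariate and 10 with the 3′ minus 5′ covariate. They numbered 18 without acrolein replicate 1 and H2O2 replicate 4 together, and 0 to 8 in the other fits of all arrays. A fit without 1 array was scored only on the 38 to 65 calls that use its group, and 2 to 12 were lost. Without acrolein replicate 3 these were 12 of 65, and without acrolein replicate 1 they were 11 of 65. Of 38 members, the number called higher after H2O2 became 7 and lower 1 with the replicate block, although its numbers did not all pair, 6 and 1 with array weights, and 8 and 1 with the ribosomal RNA covariate. The replicate block gave 5 members lower after acrolein. For the differences that pair by number it changed the member calls of CAM1, GCN20, GCN2 and ANB1 after acrolein. It also changed those of GCD6, HCR1 and PRT1 after NEM, and of EAP1, CDC33 and ANB1 between acrolein and NEM. Of the further lists, only genes called against the control in the main fit were followed, and there the block ended the call of TOR2 after acrolein. Over all probe sets it gave 1677 higher and 2251 lower after acrolein, 697 and 778 after H2O2, and 1678 and 1975 after NEM. Higher than H2O2 after acrolein were 9 with the ribosomal RNA covariate and 10 without acrolein replicate 1 and H2O2 replicate 4. Lower than NEM after acrolein were 3 with 2 groups alone, 3 with the 3′ minus 5′ covariate and 2 without those arrays. Shares over all probe sets are not given for fits other than the main one and the replicate block. Member counts in those other fits, including fits without 1 array, therefore cannot be set against a background.

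At an adjusted p under 0.01 the counts were 0 higher after H2O2, 10 for acrolein above H2O2, 9 above and 2 below NEM, and 2 for NEM below H2O2. With a difference of at least 0.5 required, they were 8 higher after acrolein, 0 after H2O2, 6 higher and 0 lower after NEM, 2 for acrolein above H2O2, 1 above and 1 below NEM, and 1 above and 0 below H2O2 for NEM. The shares over all probe sets at these stricter thresholds are not given, so these counts cannot be set against a background. With each array left out, members called higher and lower ran from 20 to 23 and 3 to 5 after acrolein, 1 to 3 and 0 to 1 after H2O2, and 13 to 16 and 4 to 7 after NEM. They ran from 12 to 21 and 3 to 4 for acrolein against H2O2, 10 to 13 and 2 to 7 for acrolein against NEM, and 8 to 10 and 4 to 5 for NEM against H2O2. With each array left out, the uncalled acrolein difference of EAP1, 0.12, ran from -0.028 (without acrolein replicate 4) to 0.23, and that of HCR1, 0.04, from -0.016 (without control replicate 2) to 0.093. The cause of these shifts was not tested, apart from the stricter thresholds. With 4 arrays per group, uncalled members, whose estimated differences lay between -0.24 and 0.27 against the control, may hold larger changes. Their 95% intervals reached further, for example to 0.60 for TIF4631 and to -0.47 for GCN2, both after H2O2.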
